A study of Rattus norvegicus with 10 samples.

Results

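Glutathione peroxidases, superoxide dismutases and catalase are the enzymes that remove superoxide and peroxides from cells. The 10 genes described here are Gpx1, Gpx2, Gpx3, Gpx4, Gpx7, Gpx8, Cat, Sod1, Sod2 and Sod3, of 14217 genes that the array annotation names through a probe set with a single symbol. They were taken as every probe set annotated to 1 of these symbols alone, which gave 11 probe sets of the 31042 tested, 2 for Gpx4 and 1 for each other gene. The study hybridised RNA of pancreatic islets from 40-day-old rats to 10 Affymetrix arrays, with 2 arrays in each of 5 groups.

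JBlyp/lyp rats are labelled diabetes prone and homozygous for the mutation at the lyp locus, the lymphopenia locus of the BB (BioBreeding) rat. DR+/+ and JB rats are labelled resistant to diabetes but inducible, without that mutation. F344lyp and F344 rats are labelled healthy controls, and the protocols write F344lyp as F344lyp/lyp. DR+/+ and JBlyp/lyp animals came from DRlyp/+ parents, and the labels do not say how JB relates to DR. All 5 groups were fasted males, and islets were freed with collagenase and collected on a density gradient, with no sorting of cell types mentioned. The labels call the 2 arrays of a group biological replicates and do not say whether islets of several animals were pooled. A p-value here sets a difference of group means only against how far arrays of a group lie apart, taken over all 5 groups. That spread may be technical. Levels are log2 RMA intensities. Differences are between group means of these log2 values and carry a standard error (SE). A gene was called where limma gave a p under 0.05 after Benjamini-Hochberg adjustment over all probe sets, and every p below comes from that fit.

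Superoxide dismutases turn superoxide into hydrogen peroxide: Sod1 does so in the cytosol with copper and zinc, Sod2 in mitochondria with manganese, and Sod3 outside cells. Catalase breaks down hydrogen peroxide in peroxisomes, and glutathione peroxidases reduce it, or lipid peroxides, with glutathione. Gpx1, Gpx2, Gpx3 and Gpx4 carry selenocysteine at the active site, while Gpx7 and Gpx8 carry cysteine and lie in the endoplasmic reticulum. Rodent beta cells are known for low catalase and glutathione peroxidase activity beside other tissues, which is the background to the study's question whether BB islets are less able to deal with oxidative stress.

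The arrays differed in ways that bear on all results below. The endocrine label held, with the insulin gene Ins1 at 13.86 to 14.27 and the glucagon gene Gcg at 11.19 to 13.74 over the 10 arrays, but the acinar enzyme gene Cpa1 also reached 9.48 to 13.85. Acinar markers (23 genes) averaged 9.32 to 10.74 on the 6 BB-related arrays and 11.94 to 12.85 on the 4 F344 and F344lyp arrays, with 22 of 23 genes lower. Macrophage markers (16 genes) averaged 5.66 to 5.92 against 6.45 to 6.76, with 14 of 16 lower. The DR+/+ arrays stood apart. Their beta cell markers (11 genes) averaged 9.14 to 9.17, against 11.01 to 11.32 on the other 8 arrays, and their stellate and fibroblast markers (18 genes) averaged 9.16, against 7.90 to 8.46. Endothelial and mesothelial markers were higher there as well, at 9.43 to 9.44 against 7.95 to 8.38 and at 9.60 to 9.62 against 7.19 to 8.13. The 3′ minus 5′ difference of the Gapdh control probe sets, a measure of RNA integrity, was 2.75 to 3.7 on BB-related arrays and 2.19 to 2.43 on F344 and F344lyp arrays, without overlap. In such bulk samples, fewer cells of a type and less RNA per cell cannot be told apart.

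**Figure D1:**
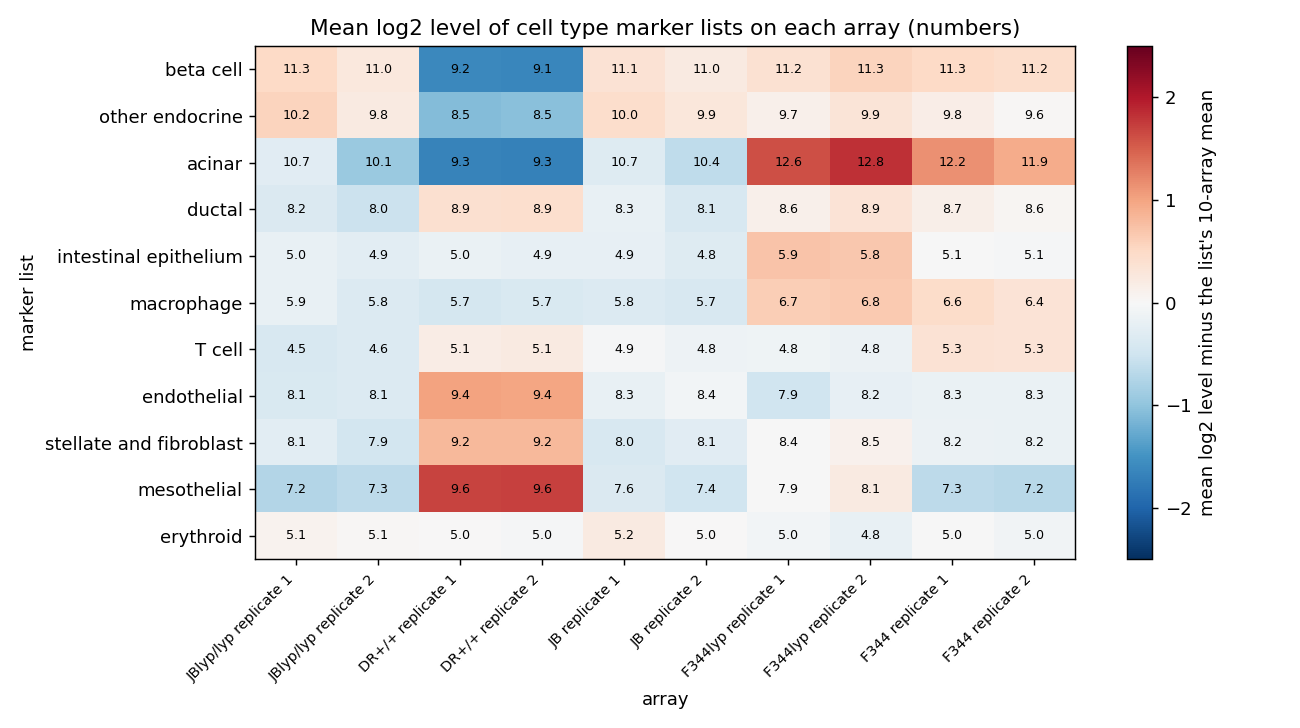
Mean log2 level of each cell type marker list (rows) on each of the 10 arrays (columns, 2 per group); numbers give the mean log2 RMA intensity and colours its distance from the list's mean over all arrays. Acinar markers lie between 9.32 and 10.74 on the BB-related arrays, below the 11.94 to 12.85 of the F344 and F344lyp arrays, and beta cell markers lie at 9.14 to 9.17 on the DR+/+ arrays alone.

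Across the 3 BB-related groups (mean of the JBlyp/lyp, DR+/+ and JB group means minus the mean of the F344lyp and F344 group means), 7 of the 10 genes fell and 1 rose. The 3 superoxide dismutases and the 4 selenocysteine peroxidases fell, Gpx8 rose, and Gpx7 and Cat were not called. Over all 14217 genes 37.9% were called in this comparison, 24.6% lower and 13.3% higher, and the median difference was -0.04, against -0.59 for the 10 genes. Only Sod2 and Sod3 were lower on all 6 BB-related arrays than on all 4 F344 and F344lyp arrays, which holds for 10.6% of all genes. The Gapdh difference and the acinar and macrophage levels given above move with this comparison, and their part in it was not tested. With the Gapdh difference as a covariate limma called 0 of 10 genes (1 at an unadjusted p under 0.05), in a fit that called 0.0211% of all genes. With strain as a random block limma also called 0 (3 at an unadjusted p under 0.05), where 3.76% of all genes were called. The groups did not carry this result alike, as each gene's own values show.

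**Figure D2:**
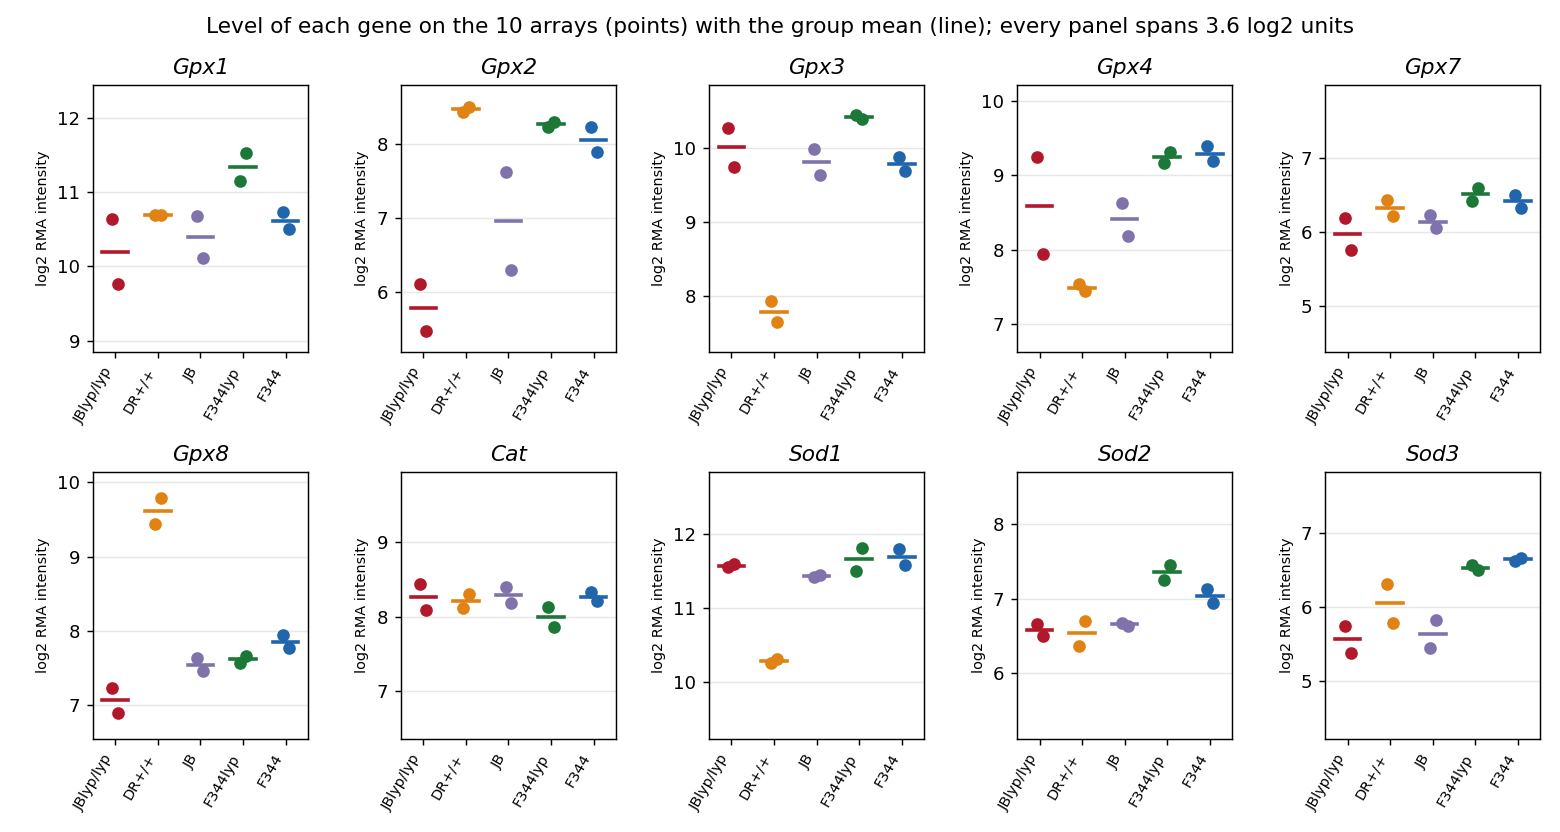
Log2 RMA intensity of each gene (lead probe set) on the 10 arrays, 2 points per group with a line at the group mean; groups run from JBlyp/lyp, DR+/+ and JB to F344lyp and F344, and every panel spans the same range. Gpx8 stands at 9.45 and 9.79 in DR+/+ and below 8 elsewhere, Gpx3 and Sod1 are lowest in DR+/+, Gpx2 is lowest in JBlyp/lyp, and Sod2 and Sod3 are lower in all 3 BB-related groups.

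Among the superoxide dismutases, the mitochondrial Sod2 was the most even across the BB-related groups. It had 6.66 and 6.50 in JBlyp/lyp, 6.36 and 6.70 in DR+/+ and 6.67 and 6.63 in JB islets, against 7.25 and 7.45 in F344lyp and 7.13 and 6.94 in F344 islets. The highest BB-related array thus lay below the lowest F344 array, and the 3 BB-related groups overlapped one another. Over the 3 groups it fell by 0.61 (SE 0.10, adjusted p = 0.00157, limma, n = 6 and 4 arrays). Against its own counterpart it was called in JBlyp/lyp (-0.78, SE 0.16, adjusted p = 0.0114) and in DR+/+ (-0.50, SE 0.16, adjusted p = 0.034), and in JB the value was -0.38 (SE 0.16, adjusted p = 0.166). The DR+/+ call ended without DR+/+ replicate 1 or either F344 array, and with a trended, robust prior (adjusted p = 0.0564). The JBlyp/lyp call ended without JBlyp/lyp replicate 2 or F344lyp replicate 2, and in a fit of the compared groups' arrays alone (adjusted p = 0.0522).

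Sod3, the extracellular enzyme that binds to the matrix and vessel walls, was also lower throughout. Its signal was weak, with a mean of 6.08 over the 10 arrays, close to the limit of 6 under which a probe set counts as dim here. The BB-related arrays averaged 5.75, under that limit. The arrays gave 5.75 and 5.38 in JBlyp/lyp, 6.31 and 5.78 in DR+/+ and 5.45 and 5.83 in JB islets, against 6.56 and 6.49 in F344lyp and 6.62 and 6.66 in F344 islets. It fell by 0.83 over the 3 groups (SE 0.13, adjusted p = 0.00121). It was the only 1 of the 10 genes called in JB against F344, lower with a 95% interval of -1.46 to -0.54 (SE 0.21, adjusted p = 0.0139), where 13.0% of all genes were called, 8.22% lower. In JBlyp/lyp against F344lyp it fell by 0.96 (SE 0.21, adjusted p = 0.0147), and in DR+/+ against F344 it stood at -0.59 (SE 0.21, adjusted p = 0.0529). JB overlapped both JBlyp/lyp and DR+/+, and no BB-related array reached the lowest F344lyp array. The JB call ended without JB replicate 1 or either F344 array, and the JBlyp/lyp call without JBlyp/lyp replicate 2 or either F344lyp array.

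Sod1, the cytosolic enzyme, differed in DR+/+ islets. Its values were 11.55 and 11.59 in JBlyp/lyp, 10.26 and 10.32 in DR+/+ and 11.42 and 11.45 in JB islets, against 11.50 and 11.81 in F344lyp and 11.79 and 11.58 in F344 islets. Both DR+/+ arrays lay below all 8 others, which spanned 11.42 to 11.81. Sod1 fell by 1.40 in DR+/+ against F344 (SE 0.15, adjusted p = 8.2e-05) and by 1.14 in DR+/+ against JB (SE 0.15, adjusted p = 0.000336). Its difference was -0.08 in JBlyp/lyp against F344lyp (SE 0.15, adjusted p = 0.757) and -0.26 in JB against F344 (SE 0.15, adjusted p = 0.329). The fall of 0.57 over the 3 groups (SE 0.10, adjusted p = 0.00144) stood at -0.17 (adjusted p = 0.306) without the DR+/+ arrays.

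Gpx3, the peroxidase known as the secreted plasma form, followed Sod1. It had 10.26 and 9.74 in JBlyp/lyp, 7.94 and 7.65 in DR+/+ and 9.99 and 9.64 in JB islets, against 10.44 and 10.39 in F344lyp and 9.88 and 9.69 in F344 islets. DR+/+ again lay below all 8 other arrays, and the JB arrays overlapped those of JBlyp/lyp and of F344. Gpx3 fell by 1.99 in DR+/+ against F344 (SE 0.20, adjusted p = 6.69e-05), and the difference was -2.02 in DR+/+ against JB (SE 0.20, adjusted p = 7.62e-05). In JB against F344 the difference was 0.03 (SE 0.20, adjusted p = 0.954) and in JBlyp/lyp against F344lyp it was -0.41 (SE 0.20, adjusted p = 0.219). Without the DR+/+ arrays the fall of 0.90 over the 3 groups (SE 0.13, adjusted p = 0.000708) was -0.19 (adjusted p = 0.387).

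Gpx4 reduces peroxides within lipid membranes and guards against ferroptosis. Its brighter probe set had 9.24 and 7.95 in JBlyp/lyp, 7.53 and 7.44 in DR+/+ and 8.63 and 8.18 in JB islets, against 9.17 and 9.31 in F344lyp and 9.39 and 9.19 in F344 islets. JBlyp/lyp replicate 1 lay within the F344 range, while the other 5 BB-related arrays lay below it. The difference was -1.80 in DR+/+ against F344 (SE 0.34, adjusted p = 0.00254). Over the 3 groups Gpx4 fell by 1.10 (SE 0.22, adjusted p = 0.00375), and without the DR+/+ arrays this difference was -0.77 (adjusted p = 0.0653). In JBlyp/lyp against F344lyp the -0.65 of all arrays (SE 0.34, adjusted p = 0.245) was -1.30 without JBlyp/lyp replicate 1 and -0.0026 without JBlyp/lyp replicate 2. The second Gpx4 probe set lay at 4.67 to 5.18 on all arrays, under the dim limit of 6, and stood at 0.04 over the 3 groups (SE 0.12, adjusted p = 0.811).

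Gpx1, the widespread cytosolic and mitochondrial peroxidase, had 10.63 and 9.76 in JBlyp/lyp, 10.69 and 10.69 in DR+/+ and 10.68 and 10.11 in JB islets, against 11.15 and 11.52 in F344lyp and 10.73 and 10.51 in F344 islets. The F344lyp arrays were the highest, and the other 4 groups overlapped their neighbours in the order of means. Gpx1 fell by 1.14 in JBlyp/lyp against F344lyp (SE 0.28, adjusted p = 0.0261), and the difference was -0.22 in JB against F344 (SE 0.28, adjusted p = 0.693) and 0.07 in DR+/+ against F344 (SE 0.28, adjusted p = 0.879). The JBlyp/lyp call ended without JBlyp/lyp replicate 2 or either F344lyp array, and in a fit of the compared groups' arrays alone (adjusted p = 0.0813). Over the 3 groups the fall was 0.55 (SE 0.18, adjusted p = 0.0418). This call ended in 7 of the 10 fits that left out an array, at adjusted p up to 0.166, and with the values quantile normalized again (adjusted p = 0.052).

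Gpx2, known as the peroxidase of the gut epithelium and, in mice and humans, as a target of the oxidative stress regulator Nrf2 (gene Nfe2l2), had its lowest level in diabetes-prone islets. It gave 6.11 and 5.49 in JBlyp/lyp, 8.43 and 8.50 in DR+/+ and 7.62 and 6.30 in JB islets, against 8.23 and 8.29 in F344lyp and 8.22 and 7.89 in F344 islets. No neighbouring groups overlapped, with JBlyp/lyp lowest, JB next and DR+/+ highest. Gpx2 fell by 2.47 in JBlyp/lyp against F344lyp (SE 0.36, 5.52-fold, adjusted p = 0.00225), and this was called without each of the 4 arrays. In JB against F344 the difference was -1.10 (SE 0.36, adjusted p = 0.0824). That value ran from -0.44 without JB replicate 2 to -1.75 without JB replicate 1, where it was called (adjusted p = 0.00549), and it was called with the replicate number as a block (adjusted p = 0.0318). In DR+/+ against F344 the difference was 0.41 (SE 0.36, adjusted p = 0.44). Without the DR+/+ arrays the fall of 1.09 over the 3 groups (SE 0.23, adjusted p = 0.00564) was larger, at -1.78 (adjusted p = 0.0027).

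Epithelial marker lists moved as follows beside Gpx2. Ductal markers (14 genes) averaged 7.98 to 8.16 in JBlyp/lyp, 8.91 to 8.93 in DR+/+ and 8.10 to 8.32 in JB islets, against 8.65 to 8.86 in F344lyp and 8.57 to 8.65 in F344 islets. DR+/+ was highest and JBlyp/lyp lowest in mean for these markers, as for Gpx2, but the 14 genes did not move alike. In DR+/+ against F344, 5 were called higher and 4 lower, where 16.3% of all genes were higher and 23.8% lower. In JBlyp/lyp against F344lyp, 2 were called higher and 6 lower, where 16.0% of all genes were called, 11.3% lower. Intestinal markers (17 genes) averaged only 4.83 to 4.97 in the BB-related groups, DR+/+ included, against 5.12 to 5.86 in the F344 groups. The part of either cell type in the Gpx2 result was not tested.

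The promoter windows of Gpx2 and Sod2 are shown because they are the only ones, of 8 genes with a window in the RefSeq table (GRCr8; Gpx8 and Sod3 were not matched), that hold the core TGACNNNGC of the antioxidant response element to which Nrf2 binds. It was searched on both strands over 250 bases before and 50 after each start site, and 12.1% of 33469 windows held it. Counted from the start site, the first base of the match lies at -13 in Gpx2 and at -35 in Sod2, both on the strand opposite to the gene. Each sequence below runs 5′ to 3′ on the gene's strand over the 150 bases before the start site, with the match in capitals, at chr6:101230034-101230183 (minus strand) for Gpx2 and chr1:50050169-50050318 (minus strand) for Sod2.
Gpx2: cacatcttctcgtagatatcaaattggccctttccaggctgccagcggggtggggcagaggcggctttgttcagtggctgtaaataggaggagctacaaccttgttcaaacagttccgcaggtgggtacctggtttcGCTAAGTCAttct
Sod2: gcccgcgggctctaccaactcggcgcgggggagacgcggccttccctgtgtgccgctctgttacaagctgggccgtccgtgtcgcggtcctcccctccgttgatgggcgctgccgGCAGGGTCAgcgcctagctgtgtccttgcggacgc
A match describes these letters and is not a measured site.

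Gpx7 and Gpx8, the cysteine peroxidases of the endoplasmic reticulum that use peroxide left by oxidative protein folding, were not called alike, and Gpx7 was called in 0 of 8 comparisons of all 10 arrays. Gpx8 had 7.24 and 6.90 in JBlyp/lyp, 9.45 and 9.79 in DR+/+ and 7.63 and 7.46 in JB islets, against 7.57 and 7.67 in F344lyp and 7.95 and 7.77 in F344 islets. Both DR+/+ arrays lay above every other array, and JBlyp/lyp was lowest. Gpx8 rose by 1.76 in DR+/+ against F344 (SE 0.17, 3.39-fold, adjusted p = 5.56e-05) and by 2.08 in DR+/+ against JB (SE 0.17, 4.22-fold, adjusted p = 2.75e-05). It stood at -0.55 in JBlyp/lyp against F344lyp (SE 0.17, adjusted p = 0.0649) and at -0.32 in JB against F344 (SE 0.17, adjusted p = 0.304). The rise of 0.34 over the 3 groups (SE 0.11, adjusted p = 0.0421) turned into a fall of 0.43 (adjusted p = 0.0282) without the DR+/+ arrays, and its call ended in 7 of the 10 fits that left out an array and with a trended, robust prior (adjusted p = 0.057).

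Gpx7 lay close to the dim limit, at 6.18 and 5.76 in JBlyp/lyp, 6.43 and 6.22 in DR+/+ and 6.22 and 6.05 in JB islets, against 6.42 and 6.60 in F344lyp and 6.50 and 6.33 in F344 islets. Each group overlapped its neighbours in the order of means, but groups further apart in that order did not all overlap. JB lay below F344 (-0.28, SE 0.18, adjusted p = 0.376) and JBlyp/lyp below F344lyp (-0.54, SE 0.18, adjusted p = 0.072) without overlap. The difference over the 3 groups was -0.32 (SE 0.11, adjusted p = 0.0554), and without the DR+/+ arrays it was called at -0.41 (adjusted p = 0.0485).

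Catalase was not called in any comparison. Cat had 8.44 and 8.09 in JBlyp/lyp, 8.12 and 8.30 in DR+/+ and 8.40 and 8.19 in JB islets, against 8.13 and 7.87 in F344lyp and 8.34 and 8.21 in F344 islets. Neighbouring groups in the order of means overlapped throughout, though F344lyp lay below F344 without overlap (-0.27, SE 0.17, adjusted p = 0.488). Limma called Cat in 0 of 8 comparisons (also 0 at an unadjusted p under 0.05). Over the 3 groups its difference was 0.12 (SE 0.11, adjusted p = 0.442), with a 95% interval of -0.13 to 0.37, so a fall of the size seen for Sod2 lay outside the interval.

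**Figure D3:**
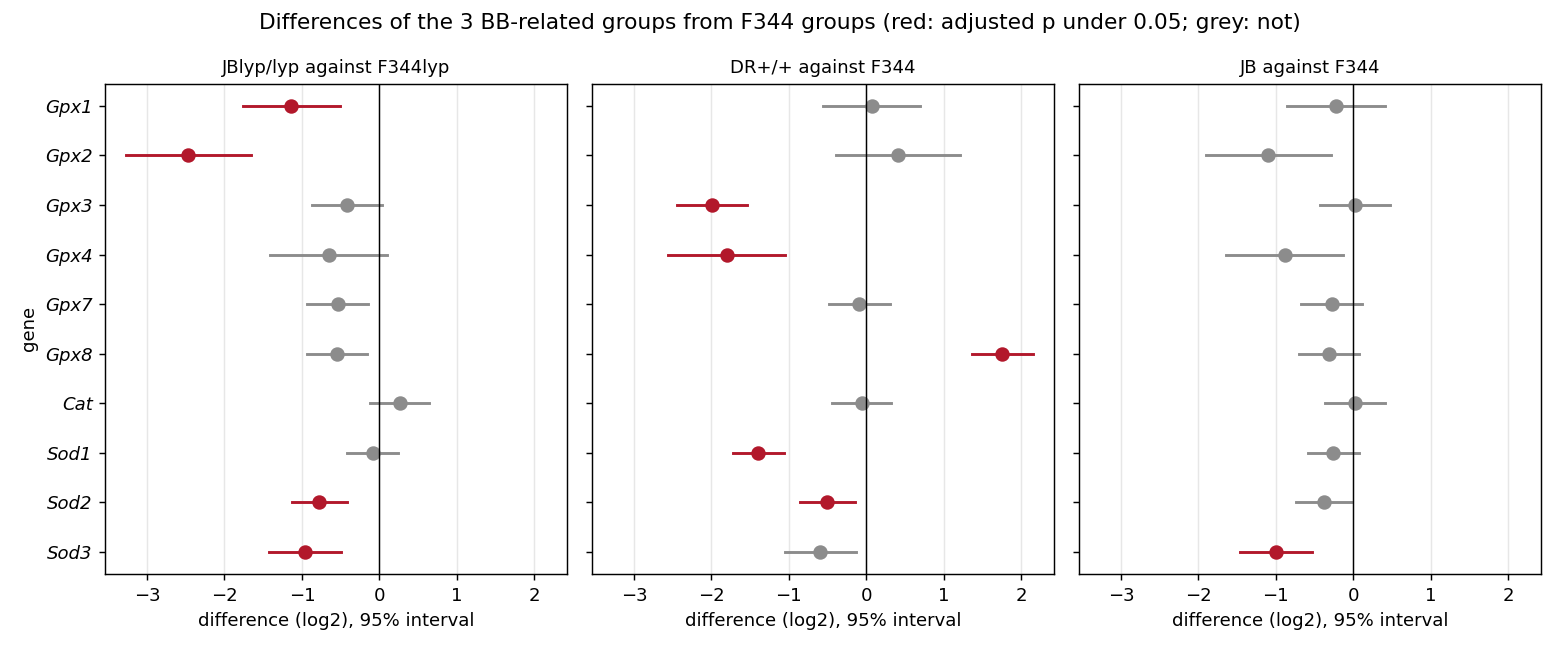
Difference on the log2 scale (x axis) of each gene (y axis) in JBlyp/lyp against F344lyp, DR+/+ against F344 and JB against F344, as points with 95% intervals from the limma fit; red marks an adjusted p under 0.05. Gpx1, Gpx2, Sod2 and Sod3 were called lower in the left panel, Gpx3, Gpx4, Sod1 and Sod2 lower and Gpx8 higher in the middle panel, and Sod3 lower in the right panel.

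Across the group comparisons, Sod2 was called in DR+/+ and in JBlyp/lyp, and Sod3 in JBlyp/lyp and in JB. DR+/+ against F344 minus JB against F344 equals DR+/+ against JB, which was called for Gpx2, Gpx3, Gpx8 and Sod1 (34.0% of all genes called). JBlyp/lyp against F344lyp minus JB against F344 equals the difference between the lyp effects given below. It was called for 0 of 10 genes (0.478% of all genes called). Whether JBlyp/lyp against F344lyp differs from DR+/+ against F344 was not tested. DR+/+ against F344 called 5 of 10, with Gpx3, Gpx4, Sod1 and Sod2 lower and Gpx8 higher, where 40.1% of all genes were called, 16.3% higher and 23.8% lower. JBlyp/lyp against F344lyp called 4 of 10, all lower (Gpx1, Gpx2, Sod2 and Sod3), where 16.0% of all genes were called, 11.3% lower. This count was 8 without JBlyp/lyp replicate 1 (21.6% of all genes called), 1 without JBlyp/lyp replicate 2 (9.97%), 2 without F344lyp replicate 1 (8.48%) and 1 without F344lyp replicate 2 (5.33%). JB against F344 called 1 of 10, where 13.0% of all genes were called, and 2 with the replicate number as a block (16.1% of all genes). DR+/+ against F344 and JB against F344 share the F344 arrays, so their values are not independent.

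Without the DR+/+ arrays, the comparison of the 2 JB groups with the 2 F344 groups called 5 of the 10 genes, all lower, where 25.6% of all genes were called, 16.8% lower. These were Gpx2, Gpx7, Gpx8, Sod2 and Sod3. In that comparison beta cell markers had a median of 0.02, while acinar markers stood at -1.85 with 21 of 23 lower and macrophage markers at -0.82 with 14 of 16 lower.

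**Figure D4:**
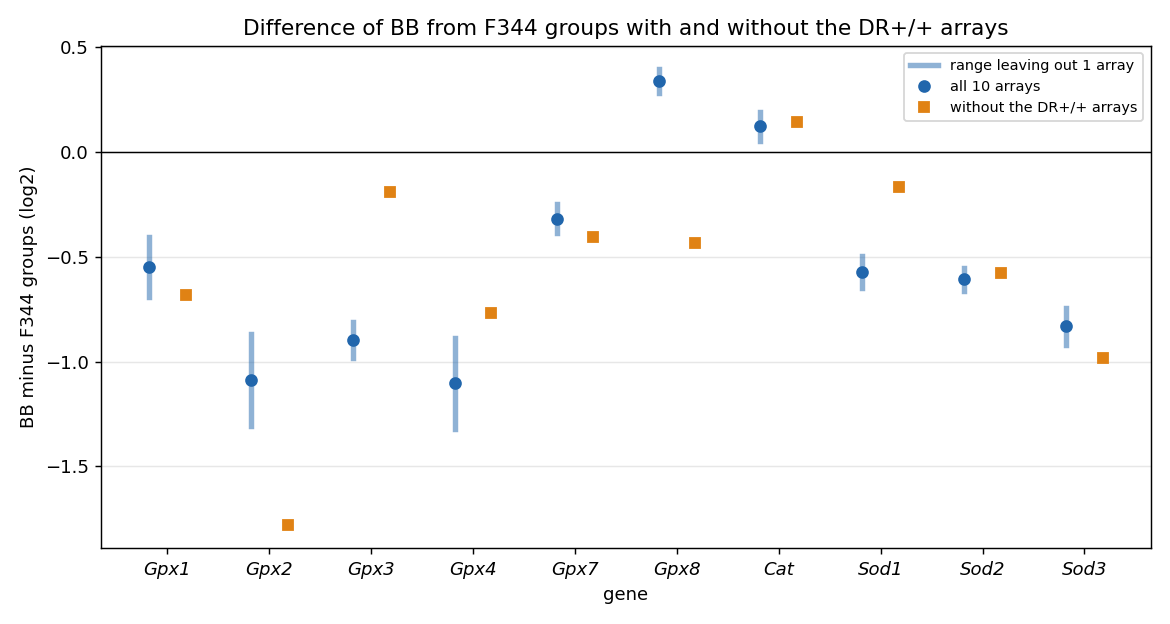
Difference of the BB-related from the F344 groups on the log2 scale for each gene, with all 10 arrays (circles, with the range over fits leaving out 1 array) and without the DR+/+ arrays (squares). Without DR+/+, Sod1 moves to -0.17 and Gpx3 to -0.19, Gpx8 turns to -0.43, Gpx2 moves to -1.78, and Sod2 and Sod3 stand at -0.58 and -0.98.

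Set directly against JB, which also lacks the mutation, DR+/+ islets had Gpx3 and Sod1 lower and Gpx8 and Gpx2 higher, 4 of 10 genes, where 34.0% of all genes were called, 15.5% higher and 18.4% lower. This comparison shares the DR+/+ and JB arrays with those against F344. Gpx2 rose by 1.50 (SE 0.36, adjusted p = 0.011), a value that ran from 0.85 without JB replicate 2 to 2.16 without JB replicate 1, and its call ended without either DR+/+ array. Gpx4 stood at -0.92 (SE 0.34, adjusted p = 0.0703). With the Gapdh difference as a covariate the count of genes called here was also 4, where 23.9% of all genes were called. Beta cell markers moved with them at a median of -2.06 (10 of 11 lower), stellate and fibroblast markers at 1.28 (13 of 18 higher), endothelial markers at 0.94 (12 of 14 higher) and mesothelial markers at 3.18 (5 of 8 higher, 1 lower). Acinar markers stood at -1.365 (17 of 23 lower) and other endocrine markers at -1.96 (10 of 12 lower, 2 higher). Ductal markers stood at 0.29 (6 of 14 higher, 2 lower). The part of these cells in the DR+/+ values was not tested.

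Neither JBlyp/lyp against JB nor F344lyp against F344 called any of the 10 genes. These 2 differences are called lyp effects here. JBlyp/lyp animals came from DRlyp/+ parents, and the labels do not say how JB relates to DR. Genetic differences other than lyp may thus enter the first comparison, and JBlyp/lyp was not set against DR+/+. In JBlyp/lyp against JB limma called 0 of 10 (2 at an unadjusted p under 0.05), where 0.00703% of all genes were called, so the comparison was poor in calls altogether. Gpx2 stood at -1.16 (SE 0.36, unadjusted p = 0.0092, adjusted p = 0.615). That value ran from -0.51 without JB replicate 1 to -1.82 without JB replicate 2, and it was -0.10 with the Gapdh covariate. Gpx8 stood at -0.48 (SE 0.17, unadjusted p = 0.0214, adjusted p = 0.707). In F344lyp against F344 it was also 0 of 10 (2 at an unadjusted p under 0.05), where 1.90% were called. There Gpx1 stood at 0.72 (SE 0.28, adjusted p = 0.26) and Gpx3 at 0.63 (SE 0.20, adjusted p = 0.171). Fitted on the F344lyp and F344 arrays alone, limma called 2 of 10, both higher, where 11.7% of all genes were called.

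The difference between the lyp effects was likewise called for 0 of 10 genes (2 at an unadjusted p under 0.05), where 0.478% of all genes were called. Gpx2 came to -1.37 (SE 0.51, adjusted p = 0.534) and Gpx1 to -0.91 (SE 0.40, adjusted p = 0.638). Leaving out 1 array moved Gpx2 between -2.03 and -0.71 and Gpx1 between -1.35 and -0.48. A difference between backgrounds in the effect of lyp was therefore not shown for these genes.

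The genes around these enzymes were looked at in 9 lists holding 187 genes, of which 78 fell and 10 rose over the 3 BB-related groups, with a median of -0.24. Over all genes 37.9% were called, 24.6% lower and 13.3% higher, and the list counts over the 3 groups stand beside these shares. Of 10 genes of copper and manganese supply, 5 were lower and 1 higher. Ccs, the chaperone that loads copper into Sod1, fell by 1.26 (SE 0.11, adjusted p = 4.39e-05). Its BB-related arrays lay at 6.00 to 7.63 and its F344 and F344lyp arrays at 8.06 to 8.19. Unlike Sod1, Ccs was called lower against its counterpart in all 3 groups, at -0.65 in JBlyp/lyp, -2.09 in DR+/+ and -1.06 in JB. The copper carrier gene Atox1 fell by 0.90, and Slc25a39, a mitochondrial carrier gene now linked to glutathione import, fell by 0.82.

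Of 14 genes of selenoprotein synthesis, 2 fell and 1 rose, where 24.6% of all genes were lower and 13.3% higher. Pstk, a kinase on the way to selenocysteine, rose by 0.63, and Scly, which frees selenium from selenocysteine, and the RNA helicase gene Eif4a3 stood at -0.58 and -0.41, both called lower. Of 16 other selenoprotein genes 6 fell and 0 rose, among them Selenoh at -1.22, Selenom at -1.22 and Selenow at -1.20. Selenow was called lower in all 3 group comparisons, at -0.64 in JBlyp/lyp, -1.68 in DR+/+ and -1.39 in JB.

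Of 24 genes of glutathione synthesis and recycling, 16 fell and 1 rose, beside the same 24.6% lower and 13.3% higher over all genes. Cth and Cbs, which make cysteine from homocysteine, stood at -3.83 and -2.23, and Ggt1, which cleaves glutathione outside cells, at -2.04, all called lower. Cth lay at 2.96 to 3.30 on BB-related arrays and at 5.42 to 8.57 on F344 and F344lyp arrays. Among 19 peroxiredoxin and thioredoxin genes, 8 fell and 0 rose, with Prdx4 of the endoplasmic reticulum at -1.91, nucleoredoxin (Nxn) at -0.85 and Prdx5 at -0.85. Among 25 Nrf2 targets and regulators, 12 fell and 2 rose, with the transferase gene Gstp1 at -1.06, the haem oxygenase gene Hmox1 at -0.90 and the metallothionein gene Mt2A at -0.90.

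Of 19 genes of enzymes that make superoxide or peroxide, 6 fell and 0 rose, again beside 24.6% lower and 13.3% higher over all genes. Cyba and Cybb, which form the core of the phagocyte NADPH oxidase, stood at -1.30 and -0.77, and the peroxide-making oxidase gene Duox2 at -0.99, all called lower. Duox2 stood at -2.19 in JBlyp/lyp against F344lyp, but at -0.12 in JB and 0.30 in DR+/+ against F344. Its BB-related arrays (3.83 to 4.59) overlapped its F344 and F344lyp arrays (4.11 to 6.24), so the F344lyp arrays carried this fall. Macrophage markers had a median of -0.76 in this comparison, and their part in these values was not tested. Of 41 peroxisome genes 12 fell and 5 rose. The membrane protein gene Pxmp4 rose by 2.12, while the fatty acid oxidation gene Ech1 fell by 1.03 and the malonyl-CoA decarboxylase gene Mlycd by 0.92. Of 29 genes of oxidative folding in the endoplasmic reticulum, 14 fell and 1 rose, with the disulfide isomerase family genes Pdia2 and Erp27 at -4.11 and -3.69 and Prdx4 at -1.91. Pdia2 and Erp27 are known from the exocrine pancreas, and acinar markers moved with them at a median of -2.13; their part was not tested. Without the DR+/+ arrays 6 of these 29 genes fell and 6 rose, and lower calls numbered 8 of 24 for glutathione synthesis and recycling, 6 of 41 for the peroxisome, 3 of 10 for copper and manganese supply, 4 of 16 for other selenoproteins, 6 of 19 for peroxiredoxins and thioredoxins, 2 of 14 for selenoprotein synthesis, 12 of 25 for Nrf2 targets and regulators and 6 of 19 for superoxide and peroxide sources, where 16.8% of all genes were lower.

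Likeness of pattern was measured as Pearson's r over the 10 arrays for the 3 genes with the widest span of group means. The genes most like Gpx8 were Slfn5 (r = 0.994), Arhgap15 (0.994) and Rnf213 (0.988), and those most like Gpx3 were Pi4ka (0.996), Disp2 (0.994) and Trim28 (0.993). Without the DR+/+ arrays, over the other 8, the values were 0.939, 0.961 and 0.902 for Gpx8 and 0.953, 0.962 and 0.985 for Gpx3. The genes most like Gpx2 were C1qtnf2 (0.965), Spp1 (0.962), a marker in the ductal list, and Urah (0.958), with 0.966, 0.971 and 0.956 over the other 8 arrays. Among the 10 genes, Gpx3 and Sod1 were most alike (r = 0.941), and Gpx8 ran opposite to both (-0.903 with Gpx3, -0.895 with Sod1). All arrays of a group share its strain and preparation, so these are descriptions of 5 groups more than of 10 points.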

How the data were processed

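Islet RNA was hybridised to Affymetrix arrays, and the authors deposited log2 values, 1 for each probe set on each array. GCOS and RMA are named in the submitters' processing notes, with versions not given in the sources used here. Array medians were 5.39 to 5.44. Of 31099 probe sets, 57 controls were set aside and 31042 tested with limma 3.58.1 in R 4.3.3, with 1 mean per group, 8 contrasts and eBayes (5 residual degrees of freedom, to which the prior added 4.72), and no filter on dim probe sets. A gene's call (p under 0.05 after Benjamini-Hochberg adjustment) is that of its lead probe set, that with the highest mean over the 10 arrays. Single symbols came from the array's annotation (20826 probe sets, with 436 naming several and 9780 none). The comparison of 3 BB-related with 2 F344 groups tests against the spread of arrays within groups, not of groups within a side. The number of arrays limits the precision. The rule for named genes takes all 10 members with all their probe sets, up to 3 called genes with the largest difference per pathway list, the 3 genes most like each of the 3 widest-ranging members, and 8 tissue markers. Ptprc (5.86 to 8.57), Pecam1 (6.36 to 8.76), Krt19 (8.40 to 9.84), Cel (10.77 to 13.86) and Ins2 (13.42 to 13.98) complete these. Members and lists were chosen with earlier results of these data known. The fit was checked on simulated data. T cell and erythroid lists had 1 and 1 higher and 2 and 0 lower of 14 and 8 genes over the BB groups, and other endocrine markers 2 higher and 5 lower of 12.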

Additional observations from a re-analysis of the deposited data

Results flagged for a closer look

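Of the 187 genes of the surrounding pathway lists, 5 differed between backgrounds in the effect of lyp, by the interaction term of the limma fit, where 0.478% of all genes were called. Cth had a lyp effect of 0.14 in JB (JBlyp/lyp against JB, adjusted p = 0.951) and of 2.83 in F344 (F344lyp against F344, adjusted p = 6.52e-05), a difference of -2.69 (SE 0.24, adjusted p = 0.00232). Ggt1 had -0.27 in JB (adjusted p = 0.894) and 1.75 in F344 (adjusted p = 0.00309), a difference of -2.02 (SE 0.28, adjusted p = 0.0217). Duox2 had -0.12 in JB (adjusted p = 0.956) and 1.96 in F344 (adjusted p = 0.000336), a difference of -2.08 (SE 0.22, adjusted p = 0.00584). Slc39a8, a manganese and zinc importer gene, had -0.58 in JB (adjusted p = 0.762) and 1.47 in F344 (adjusted p = 0.0158), a difference of -2.04 (SE 0.32, adjusted p = 0.0389). Anpep, an aminopeptidase gene that is also on the intestinal marker list, had -0.22 in JB (adjusted p = 0.904) and 1.44 in F344 (adjusted p = 0.00486), a difference of -1.66 (SE 0.25, adjusted p = 0.0347). Slc39a8 and Anpep lie outside the rule for named genes and were chosen after their values were seen. Each comparison had 2 arrays a group. On BB-related arrays Cth lay at 2.96 to 3.30 and Duox2 at 3.83 to 4.59, under the dim limit of 6. A fall of these 2 genes with lyp in JB could hardly register at such levels. Intestinal markers averaged 5.81 to 5.86 in F344lyp and 5.12 to 5.14 in F344 islets, and acinar markers 12.63 to 12.85 in F344lyp and 11.94 to 12.16 in F344 islets; their part in these differences was not tested.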

How the results depend on the processing

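The number of the 10 genes called changed by over 1.5 times as follows. With the Gapdh covariate it was 0 for BB, JB, JBlyp/lyp and DR+/+ against their F344 counterparts (with 8, 1, 4 and 5 without it), in fits that called 0.0211%, 0.00703%, 0.492% and 0.338% of all genes. For BB against F344 it was 3 with 2 means only, where 13.2% of all genes were called. It was 0 with strain as a random block (estimated correlation 0.491, 3.76% of all genes) and 5 without DR+/+ (25.6%). With only the arrays of the compared groups it was 2 for JB against F344, 2 for JBlyp/lyp against F344lyp and 2 for F344lyp against F344. Those fits called 12.4%, 6.75% and 11.7% of all genes. The replicate block gave 2 for JB against F344 (16.1% of all genes) and changed no other count by over 1.5 times. The titles' replicate numbers were not taken as pairs, since no pairing is stated. Rep1 minus rep2 differences correlated at 0.65 between JBlyp/lyp and JB, and at -0.10 to 0.24 between other groups. What JBlyp/lyp and JB share by replicate number was not tested. With the replicate block JBlyp/lyp against JB called 0 of 10, where 0.0141% of all genes were called. Leaving out 1 array gave 6 to 8 calls for BB against F344, 0 to 1 for JB against F344, 1 to 8 for JBlyp/lyp against F344lyp, 4 to 5 for DR+/+ against F344, 3 to 4 for DR+/+ against JB, and 0 for the 3 lyp comparisons. The BB difference changed sign for Gpx8 without DR+/+, where limma called it lower (-0.43, adjusted p = 0.0282). Its sign also changed, without a call, for Gpx4 with its dimmer probe set (0.0425, adjusted p = 0.811). The same held for Sod3 with the Gapdh covariate, at 0.41 (adjusted p = 0.894), and at 0.50 in JB against F344 (adjusted p = 0.999). The cause was not tested. A minimum mean of 6, a second quantile normalization and a trended, robust prior moved no count by over 1.5 times. A paired analysis of animals was not possible because the labels name none.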
